A study of Mus musculus with 127 samples.

Results

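The transcriptome of short-term haematopoietic stem cells (ST) was followed through the first hour of exposure to bacterial ligands that act on Toll-like receptors (TLRs). ST were sorted by surface markers from the bone marrow of young mice and cultured with 100 ng/ml LPS and 1 ug/ml Pam3csk4 for 0.5 h or 1 h. The stimulated cells were set against 0 h cells of the same mice, which had not been exposed. Young mice 1, 2 and 3 each gave 1 culture at each time. The labels used here name no strain, genotype or exact age, and all the groups used here come from young animals. Libraries were taken by age, population, time and mouse as labelled, technical repeats were summed, and no library fell under the minimum of 1000 counts. This took 13 of the 127 deposited libraries and left 9, 1 for each mouse at 0, 0.5 and 1 h. The 0 h libraries of mice 1 and 2 carry the ligand label with a time of 0, and that of mouse 3 carries none; all 3 were taken as unexposed. No ligand-free culture at 0.5 h or 1 h was analysed here, so the action of the ligands and that of the culture medium and handling cannot be told apart in these comparisons.

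LPS is sensed by TLR4 with its co-receptors MD-2 (Ly96) and CD14, and the triacylated lipopeptide Pam3csk4 by the TLR1 and TLR2 pair. Both receptors recruit the adaptor MyD88 and IRAK kinases, which switch on the IKK complex and the MAP kinases. IKK marks the inhibitor I-kappa-B-alpha for destruction and so frees NF-kB dimers, while the MAP kinases act on AP-1, SRF and CREB family factors. The first genes to respond need no new protein. Many of them encode inhibitors of the same pathway, such as I-kappa-B proteins, the ubiquitin editor A20, dual-specificity phosphatases and mRNA decay factors. Haematopoietic stem and progenitor cells carry functional TLRs and can sense these ligands directly.

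The 9 libraries held 4048178 to 10706984 summed expected counts and 9523 to 12733 detected genes. Levels are given below in TMM-scaled CPM (each gene's count divided by its library's total, adjusted by edgeR's TMM factor, times 1e+06), in the order of mice 1, 2 and 3. The sorted population was checked against some of its markers. Kit, the stem cell factor receptor, was at 376, 639 and 1326 CPM at 0 h, and Flt3, a receptor of multipotent progenitors, at 141, 222 and 435 CPM. Slamf1, which encodes the CD150 protein of long-term stem cells (LT), had no counts in any 0 h ST library and averaged 24.0 ± 22.7 CPM in LT of the same mice (SD, n = 3). It was at 0, 26.8 and 45.1 CPM in these LT libraries. Procr, another stem cell surface gene, was not lower in ST, at 86.3 ± 64.0 CPM in ST and 56.4 ± 77.5 CPM in LT at 0 h (SD, n = 3 each). The mice differed from one another in transcripts of mature myeloid cells. The summed level of 10 detected neutrophil markers was 57519, 35998 and 146 CPM at 0 h, 63308, 29859 and 343 CPM at 0.5 h and 62614, 35985 and 252 CPM at 1 h. It was high in mice 1 and 2 at every time and low in mouse 3 at every time, so it moved with the mouse and not with the time. In bulk libraries such as these, fewer cells of a type and less RNA per cell cannot be told apart. The cultures of a mouse also shared their deviations from the group means (r of 0.12 to 0.57 within a mouse, over 9 pairs of libraries, and -0.39 to 0.13 between mice, over 18 pairs). The highest values were those of mouse 3 (0.55 to 0.57). Those of mouse 2 (0.12 to 0.13) were no higher than the highest between mice. Counts over all genes, and results of some genes, are therefore also given with mouse as a replicate block. Counts within gene lists are without it unless stated.

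At 0.5 h, 20 of 13678 tested genes were higher than at 0 h and none was lower (edgeR quasi-likelihood test, Benjamini-Hochberg adjusted p under 0.05; 0.146% of the genes tested were called higher and 0% lower). With mouse as a replicate block 33 genes (0.241%) were higher and none lower. Without mouse 2 the count was 5, and these were Nfkbiz, Nfkbia, Tnfaip3, Nr4a1 and Junb. At an unadjusted p under 0.05 the test held 328 genes in either direction. DESeq2 called 67 genes lower at 0.5 h and limma voom with quality weights 13, so the absence of falls holds for the edgeR fits only.

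Feedback inhibitors of NF-kB were among the genes that rose at 0.5 h. Nfkbiz, which encodes the nuclear I-kappa-B-zeta that co-activates secondary inflammatory genes, stood at 1337, 619 and 442 CPM at 0.5 h, against 7.51, 7.26 and 8.92 CPM at 0 h. The 0 h level was nearly the same in the 3 mice and every stimulated library lay far above it. The log2 fold change was 6.66 ± 0.63 (standard error, SE; n = 3 mice at each time; edgeR adjusted p = 5.36e-10). Nfkbia, the gene of I-kappa-B-alpha, was at 1193, 723 and 574 CPM at 0.5 h, against 159.9, 75.6 and 102 CPM at 0 h. The groups did not overlap, and mouse 1 was the highest at both times. The log2 change was 2.88 ± 0.40 (SE, edgeR adjusted p = 7.04e-06). Tnfaip3, which encodes A20, was at 531, 192 and 438 CPM at 0.5 h and 8.30, 14.1 and 6.25 CPM at 0 h. Its lowest stimulated value, that of mouse 2, was still above all 0 h values, and the log2 change was 5.33 ± 0.69 (SE, edgeR adjusted p = 1.46e-06).

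Of the 6 members of the I-kappa-B family, 2 passed at 0.5 h, and the median log2 change of the 6 was 2.11, beside -0.06 over all genes tested. Nfkbid (I-kappa-B-NS) was at 453, 394 and 708 CPM at 0.5 h and 82.0, 19.1 and 8.92 CPM at 0 h and did not pass (edgeR adjusted p = 1). None of the 5 NF-kB subunits passed at this time, with a median log2 change of 0.29. Relb, which encodes the partner of the p100 and p52 proteins, was at 1.27, 16.8 and 40.7 CPM at 0.5 h and 11.0, 22.3 and 31.9 CPM at 0 h, and these groups overlapped. Among 15 regulators of ubiquitin chains in the pathway, Tnfaip3 alone passed, and their median was -0.06.

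Immediate early transcription factors made up the next group. Nr4a1, an orphan nuclear receptor induced by many stimuli, was at 3138, 3739 and 9483 CPM at 0.5 h, against 27.7, 18.7 and 14.5 CPM at 0 h. Mouse 3 had the highest level at 0.5 h and the lowest at 0 h. The log2 change was 8.07 ± 0.93 (SE, edgeR adjusted p = 1.17e-07), and the call was absent from limma voom with quality weights. Junb, an AP-1 subunit, was at 2233, 2851 and 2715 CPM at 0.5 h and 269, 198 and 143 CPM at 0 h. The 3 mice were close to one another at both times, with a log2 change of 3.68 ± 0.44 (SE, edgeR adjusted p = 2.55e-07). Atf3, a repressor of the ATF and CREB family that restrains TLR-induced genes, was at 269, 240.5 and 286 CPM at 0.5 h and had no counts in any 0 h library. Against a floor of 3 counts over the 0 h group it was at least 2170.0-fold higher at 0.5 h (edgeR adjusted p = 0.000565); such floors cover counting error only. Ier2, an immediate early nuclear protein, was at 1819, 1632 and 1798 CPM at 0.5 h and 145, 191 and 168 CPM at 0 h, a log2 change of 3.38 ± 0.50 (SE, edgeR adjusted p = 3e-05).

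The classical AP-1 and Egr genes were also far apart in level between the times, yet did not pass. Fos was at 996, 1238 and 1905 CPM at 0.5 h and 0.449, 21.4 and 33.0 CPM at 0 h (log2 change 6.24 ± 2.07 SE, edgeR adjusted p = 1). Egr1, a zinc finger factor induced through SRF, was at 719, 844 and 1748 CPM at 0.5 h and 15.9, 3.23 and 40.4 CPM at 0 h (log2 change 5.80 ± 1.72 SE, adjusted p = 0.583). Neither gene's groups overlapped, and their 0 h levels spread widely between mice. In all, 2 of 11 AP-1 genes and 2 of 23 further immediate early genes passed at 0.5 h. All 11 and all 23 had a positive log2 change, with medians of 3.68 and 2.90, beside -0.06 over all genes. Nr4a2, a paralog of Nr4a1, was at 160.0, 401 and 683 CPM at 0.5 h and 0.224, 0 and 2.01 CPM at 0 h. It passed with mouse as a replicate block (edgeR adjusted p = 0.0279; 0.00179 to 1 over 16 alternatives) and not without it (0.204).

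Among genes that shorten signals or restrain growth, 1 of 15 MAP kinase feedback genes, 2 of 10 mRNA decay and antiproliferative genes and 2 of 11 CDK inhibitor and p53 genes passed at 0.5 h, with median log2 changes of 2.12, 1.31 and 0.77. Dusp1, a phosphatase that inactivates p38 and JNK, was at 1319.7, 1104 and 1254 CPM at 0.5 h and 27.0, 57.2 and 73.2 CPM at 0 h. The groups were far apart, with a log2 change of 4.55 ± 0.67 (SE, edgeR adjusted p = 2.78e-05). Btg2, an antiproliferative partner of the deadenylase complex, was at 1526, 1424 and 2204 CPM at 0.5 h and 74.3, 76.0 and 26.3 CPM at 0 h (log2 change 4.86 ± 0.73 SE, adjusted p = 3.74e-05). Zfp36 encodes tristetraprolin, which binds AU-rich elements and speeds the decay of cytokine mRNAs. It was at 829, 778 and 540.4 CPM at 0.5 h and 51.5, 51.0 and 38.4 CPM at 0 h (log2 change 3.93 ± 0.83 SE, adjusted p = 0.0166). Cdkn1a, the CDK inhibitor p21, averaged 183 ± 40.3 CPM at 0.5 h and 7.13 ± 5.40 CPM at 0 h (SD, n = 3 each), and Gadd45b, a stress-induced activator of the p38 pathway, 55.2 ± 10.5 and 8.05 ± 2.12 CPM at the same times. Both passed (edgeR adjusted p = 0.00706 for Cdkn1a and 0.0249 for Gadd45b), and both calls were lost without any 1 of the 3 mice.

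**Figure D1:**
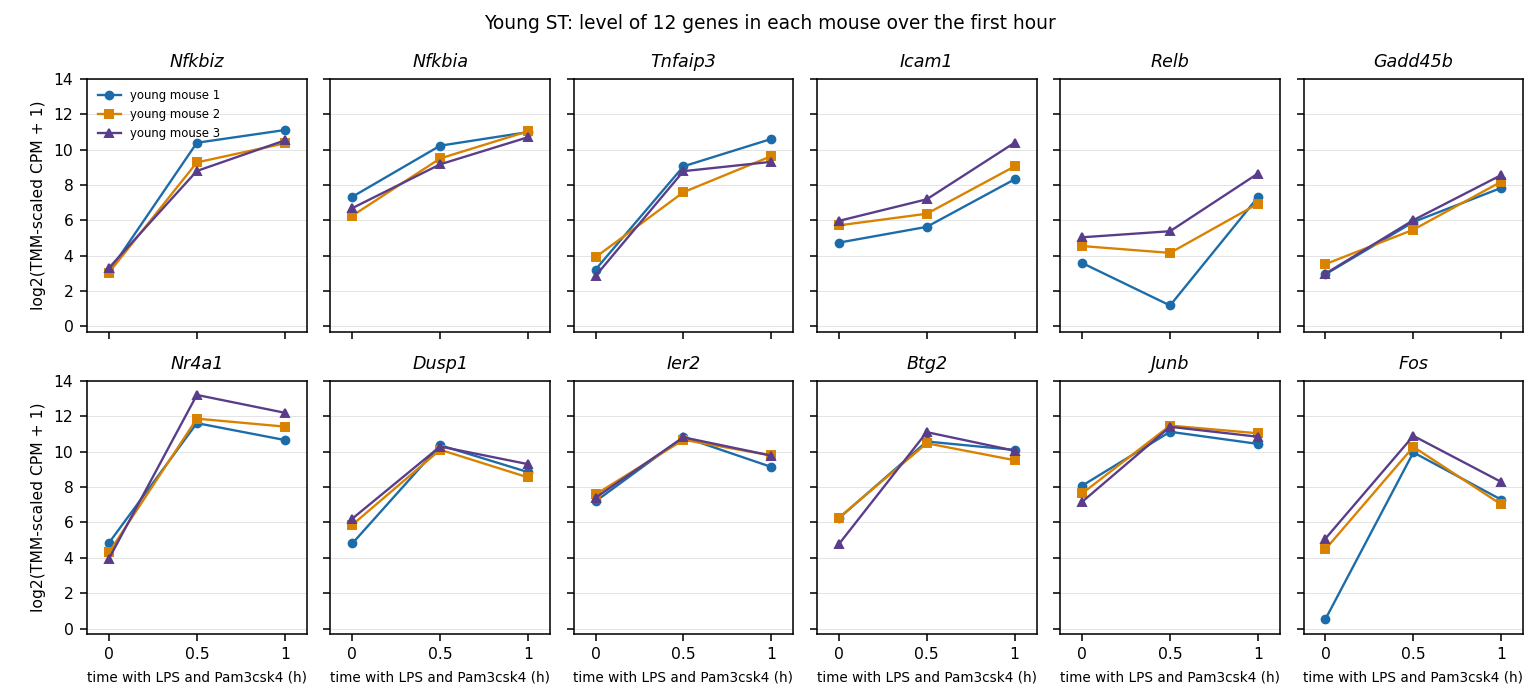
Level of 12 genes in young ST at 0, 0.5 and 1 h, as log2 of TMM-scaled CPM plus 1 on the vertical axis, with 1 line for each of mice 1, 2 and 3. Nfkbiz, Nfkbia, Tnfaip3, Icam1 and Gadd45b are highest at 1 h in each mouse, while Nr4a1, Dusp1, Ier2, Btg2, Junb and Fos are highest at 0.5 h in each mouse; of these genes, Fos did not pass the test at either time.

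Few genes of secreted mediators passed the test at this time. Cxcl2, a chemokine that draws neutrophils, was at 344, 104 and 47.3 CPM at 0.5 h and had no counts at 0 h in any mouse, so it was at least 1350.0-fold higher (edgeR adjusted p = 0.0151; the call was lost without mouse 1 or mouse 2). Cxcl16, a membrane-bound chemokine, was at 35.8, 13.4 and 5.73 CPM at 0.5 h with no counts at 0 h (at least 150.0-fold, adjusted p = 0.0176). Ptgs2, the inducible cyclooxygenase of prostaglandin synthesis, was at 171, 159.8 and 129.8 CPM at 0.5 h and 0, 0.628 and 0 CPM at 0 h (log2 change 9.15 ± 1.59 SE, adjusted p = 0.000754). The 3 stimulated libraries were close together for Ptgs2 and differed several-fold for both chemokines. Of 15 tested chemokines 2 passed, and of 20 tested cytokines none did (edgeR; 2 cytokines with mouse as a replicate block). The median log2 change was 3.59 for the chemokines, with 10 positive. For the cytokines it was 0.93, with 13 positive, beside -0.06 over all genes. Tnf was at 419, 165 and 58.3 CPM at 0.5 h and 6.05, 0.538 and 0 CPM at 0 h, and their groups did not overlap. Il1b was at 1260.0, 247 and 76.8 CPM at 0.5 h and 26.7, 4.75 and 0 CPM at 0 h. With mouse as a replicate block the edgeR adjusted p was 0.0183 for Tnf (0.00064 to 1 over 16 alternatives) and 0.000134 for Il1b (0.000129 to 1); without it, 0.657 and 0.37. The other genes added by the block at 0.5 h were Ccl4, Cxcl10, Cd14, Cd69, Ier3, Klf6, Kdm6b, Marcksl1, Nr4a2, Pde4b (a cAMP phosphodiesterase) and Ppp1r15a (GADD34, which restores translation after stress).

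Other genes that passed at 0.5 h changed by less or are known for other roles. Skil encodes SnoN, a co-repressor of Smad proteins, and averaged 322 ± 174 CPM at 0.5 h and 33.9 ± 21.6 CPM at 0 h (SD, n = 3 each; log2 change 3.24). Rasgef1b, an exchange factor for small GTPases, averaged 203 ± 75.1 and 6.23 ± 5.35 CPM at the same times (log2 change 5.03). Hspa5, the endoplasmic reticulum chaperone BiP, averaged 1296 ± 186 and 431 ± 118 CPM, and Clk1, a kinase of splicing factors, 485 ± 30.1 and 142 ± 15.2 CPM. These last 2 had log2 changes of 1.59 and 1.78.

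Proximal promoters were available from RefSeq (GRCm38.p6, 250 bases before and 50 after each start) for 14 of the 20 genes. They are shown for 6 of the genes whose windows hold a match to a motif of the factors named above. Windows of Nr4a1 (NF-kB) and Hspa5 (AP-1) also hold a match and are not printed. Windows of Atf3, Junb, Gadd45b, Cdkn1a, Rasgef1b and Ptgs2 and another window of Tnfaip3 hold none and are not printed. Capitals mark matches, on either strand, to the NF-kB consensus, to the AP-1 motif TGANTCA, to the CRE motif TGACGTCA and to the CArG box of SRF; the counts were mapped to mm9, and these coordinates are those of GRCm38.
Nfkbia, chr12:55492598-55492897, strand minus: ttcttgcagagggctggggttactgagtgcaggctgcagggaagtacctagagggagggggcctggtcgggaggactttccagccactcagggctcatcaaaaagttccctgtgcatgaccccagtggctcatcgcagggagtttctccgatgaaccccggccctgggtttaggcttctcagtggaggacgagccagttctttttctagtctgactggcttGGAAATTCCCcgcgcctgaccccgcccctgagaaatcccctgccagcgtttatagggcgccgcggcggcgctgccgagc
Tnfaip3, chr10:19015361-19015660, strand minus: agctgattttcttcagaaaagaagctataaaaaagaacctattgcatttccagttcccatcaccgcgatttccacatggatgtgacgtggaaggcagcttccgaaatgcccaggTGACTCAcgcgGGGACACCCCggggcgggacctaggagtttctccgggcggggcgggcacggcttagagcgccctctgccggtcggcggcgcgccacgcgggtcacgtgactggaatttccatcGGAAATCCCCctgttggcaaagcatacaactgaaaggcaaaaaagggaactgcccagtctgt
Cxcl2, chr5:90903649-90903948, strand plus: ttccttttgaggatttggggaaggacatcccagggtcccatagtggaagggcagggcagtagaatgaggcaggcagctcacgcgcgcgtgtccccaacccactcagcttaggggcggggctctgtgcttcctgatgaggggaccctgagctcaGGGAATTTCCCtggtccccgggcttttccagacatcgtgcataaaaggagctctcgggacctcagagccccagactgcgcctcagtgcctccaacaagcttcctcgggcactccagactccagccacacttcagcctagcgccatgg
Btg2, chr1:134079106-134079405, strand minus: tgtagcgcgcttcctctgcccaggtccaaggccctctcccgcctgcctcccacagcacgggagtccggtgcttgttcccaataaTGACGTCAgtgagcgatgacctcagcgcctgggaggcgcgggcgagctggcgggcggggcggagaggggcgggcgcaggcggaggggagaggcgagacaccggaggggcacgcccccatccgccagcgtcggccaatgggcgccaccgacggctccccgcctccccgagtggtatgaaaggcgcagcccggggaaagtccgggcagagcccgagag
Dusp1, chr17:26508423-26508722, strand minus: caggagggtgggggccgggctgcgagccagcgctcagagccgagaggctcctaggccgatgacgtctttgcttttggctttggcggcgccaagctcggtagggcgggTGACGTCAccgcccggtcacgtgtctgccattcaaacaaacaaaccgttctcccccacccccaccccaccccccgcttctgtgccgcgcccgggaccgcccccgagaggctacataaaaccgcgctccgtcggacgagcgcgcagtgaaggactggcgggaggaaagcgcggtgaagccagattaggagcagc
Zfp36, chr7:28379179-28379478, strand minus: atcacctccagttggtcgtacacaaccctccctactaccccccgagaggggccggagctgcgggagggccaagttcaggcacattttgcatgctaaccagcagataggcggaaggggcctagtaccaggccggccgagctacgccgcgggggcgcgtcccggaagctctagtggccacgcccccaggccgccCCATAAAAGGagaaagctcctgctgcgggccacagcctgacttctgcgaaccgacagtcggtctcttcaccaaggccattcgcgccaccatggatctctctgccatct
The Nfkbia and Cxcl2 windows hold the NF-kB consensus, where overlapping matches on both strands run together in Cxcl2. The Tnfaip3 window holds the AP-1 motif and then the NF-kB consensus at 2 places. Btg2 and Dusp1 hold the CRE, and Zfp36 the CArG box. Among the 16 promoters of the genes higher at 0.5 h, 4 (25%) held the NF-kB consensus, against 8.46% of all 32851 promoters of the same length. The CRE was in 2 of the 16 (12.5%) and in 1.79% of all promoters, the AP-1 motif in 2 (12.5%) and in 7.81%, and the CArG box in 1 (6.25%) and in 1.63%. Among the 39 promoters of 28 of the genes higher at 1 h, 12 (30.8%) held the NF-kB consensus, 4 (10.3%) the AP-1 motif, 2 (5.13%) the CRE and 1 (2.56%) the CArG box. These matches are descriptions of short windows, and binding was not measured.

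At 1 h, 41 of 13678 genes were higher than at 0 h and none was lower (edgeR, adjusted p under 0.05; 0.300% called higher and 0% lower). This comparison shares its 0 h libraries with the one at 0.5 h. With mouse as a replicate block 77 genes (0.563%) were higher and none lower, and without mouse 2 the count was 5 (Nfkbiz, Nfkbia, Tnfaip3, Nr4a1 and Gadd45b). At an unadjusted p under 0.05 there were 563 genes, and DESeq2 called 47 genes lower and limma voom with quality weights 25. The median log2 change of all genes was -0.07 under TMM scaling and -0.21 under DESeq2's size factors, and 36 genes passed in edgeR with those size factors.

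Nfkbiz, Nfkbia and Tnfaip3 passed again. Nfkbiz was at 2203, 1306 and 1465 CPM at 1 h, against 7.51, 7.26 and 8.92 CPM at 0 h (log2 change 7.71 ± 0.66 SE, edgeR adjusted p = 1.56e-11). Nfkbia was at 2033, 2098 and 1663 CPM at 1 h and 159.9, 75.6 and 102 CPM at 0 h (log2 change 4.10 ± 0.42 SE, adjusted p = 2.85e-09). Tnfaip3 was at 1553, 792 and 634 CPM at 1 h and 8.30, 14.1 and 6.25 CPM at 0 h (log2 change 6.69 ± 0.73 SE, adjusted p = 1.57e-08). The groups were separated for all 3 genes, with each mouse at 1 h far above every 0 h value. In the I-kappa-B family again 2 of 6 passed, and the median log2 change was 3.64, beside -0.07 over all genes. Nfkbie (I-kappa-B-epsilon) was at 212, 176 and 177 CPM at 1 h and 17.04, 16.2 and 27.4 CPM at 0 h and did not pass (edgeR adjusted p = 0.527).

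Genes of the alternative NF-kB arm appeared at 1 h. Nfkb2, which encodes p100, was at 241, 215 and 280.1 CPM at 1 h, against 21.1, 18.8 and 47.7 CPM at 0 h, with all 3 stimulated libraries well above the others (log2 change 3.07 ± 0.47 SE, edgeR adjusted p = 5.57e-05). Relb was at 157, 122 and 399.5 CPM at 1 h and 11.0, 22.3 and 31.9 CPM at 0 h (log2 change 3.38 ± 0.71 SE, adjusted p = 0.00791), a call that held in 10 of 16 alternatives. Thus 2 of 5 NF-kB subunits passed, with a median of 2.12. The other 3, Rela, Rel and Nfkb1, were higher in each mouse but did not pass; Rela, for instance, was at 171, 311 and 472 CPM at 1 h and 102, 99.7 and 139 CPM at 0 h (adjusted p = 0.874).

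Surface molecules of activated leukocytes rose at 1 h. Icam1, the adhesion ligand of beta-2 integrins, was at 318, 529.6 and 1341 CPM at 1 h, against 25.7, 51.5 and 61.6 CPM at 0 h. Mouse 3 was the highest and the groups did not overlap (log2 change 3.98 ± 0.64 SE, edgeR adjusted p = 0.000168). Cd83, an immunoglobulin-family protein of activated antigen-presenting cells, was at 1207, 1882 and 3830.3 CPM at 1 h and 46.3, 0 and 9.37 CPM at 0 h (log2 change 6.95 ± 1.52 SE, adjusted p = 0.0141, passed in 10 of 16 alternatives). Cd69, a lectin of early lymphocyte activation that holds cells in tissue, was at 438, 1012 and 1062 CPM at 1 h and 20.4, 30.3 and 20.97 CPM at 0 h (log2 change 5.13 ± 0.99 SE, adjusted p = 0.00268). The highest values of Cd69 and Cd83 were those of mouse 3 as well. These were 3 of the 14 activation genes tested; all 14 had a positive log2 change, with a median of 2.75. The 7 dendritic cell markers summed to 751, 722 and 444 CPM at 1 h and 734, 459 and 187 CPM at 0 h, higher at 1 h in each mouse, with 6 of 7 positive and a median log2 change of 0.90 and none called. Their part in the levels of the surface genes was not tested.

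Immediate early factors remained above 0 h. Nr4a1 was at 1617, 2737 and 4711 CPM at 1 h (log2 change 7.21 ± 0.89 SE against 0 h, edgeR adjusted p = 5.19e-07) and Junb at 1389, 2106 and 1840.4 CPM (3.13 ± 0.43 SE, adjusted p = 5.49e-06). Atf3 was at 137, 95.4 and 413 CPM at 1 h and without counts at 0 h (at least 1760.0-fold, adjusted p = 0.000499). Dusp1, Ier2, Btg2, Rasgef1b, Skil, Clk1 and Hspa5 also passed at both times, while Zfp36 passed at 0.5 h and not at 1 h (adjusted p = 0.0729 at 1 h; 0.000506 to 1 over 16 alternatives) and did not pass in the step between these times. Of the classical genes that did not pass, Fos was at 155, 129 and 312 CPM and Egr1 at 159, 133 and 744 CPM at 1 h, above all their 0 h values. Nr4a3, the third paralog, was at 9.10, 18.2 and 35.0 CPM at 1 h with no counts at 0 h (at least 170.0-fold; edgeR adjusted p = 0.0478 with mouse as a replicate block, 0.221 without, 6.8e-06 to 1 over 16 alternatives).

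Of the 15 chemokines tested, 3 passed at 1 h. Cxcl2 was at 329, 216 and 144 CPM and Cxcl16 at 29.4, 70.8 and 40.0 CPM, both with no counts at 0 h (at least 1880.0-fold and 382-fold; edgeR adjusted p = 0.0057 and 0.00268). Cxcl10, a chemokine for T cells and natural killer cells, was at 268, 295 and 46.2 CPM at 1 h and 0, 0.179 and 1.56 CPM at 0 h (log2 change 8.58 ± 1.65 SE, adjusted p = 0.00268), with the stimulated value of mouse 3 far below those of mice 1 and 2. Ccl4 was at 259, 317 and 95.3 CPM at 1 h and 6.62, 26.0 and 16.95 CPM at 0 h (adjusted p = 0.0924, and 0.00764 with mouse as a replicate block; 0.000448 to 1 over 16 alternatives). None of 20 cytokines passed in edgeR, and 2 (Tnf and Il1b) did with mouse as a replicate block. The median log2 change at 1 h was 3.43 for the 20 cytokines, of which 17 were positive. For the 15 chemokines it was 3.76, with 12 positive, beside -0.07 over all genes. Il6 was at 9.57, 20.1 and 0 CPM at 1 h and 0, 2.24 and 0 CPM at 0 h, so that mouse 3 had none at either time.

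**Figure D2:**
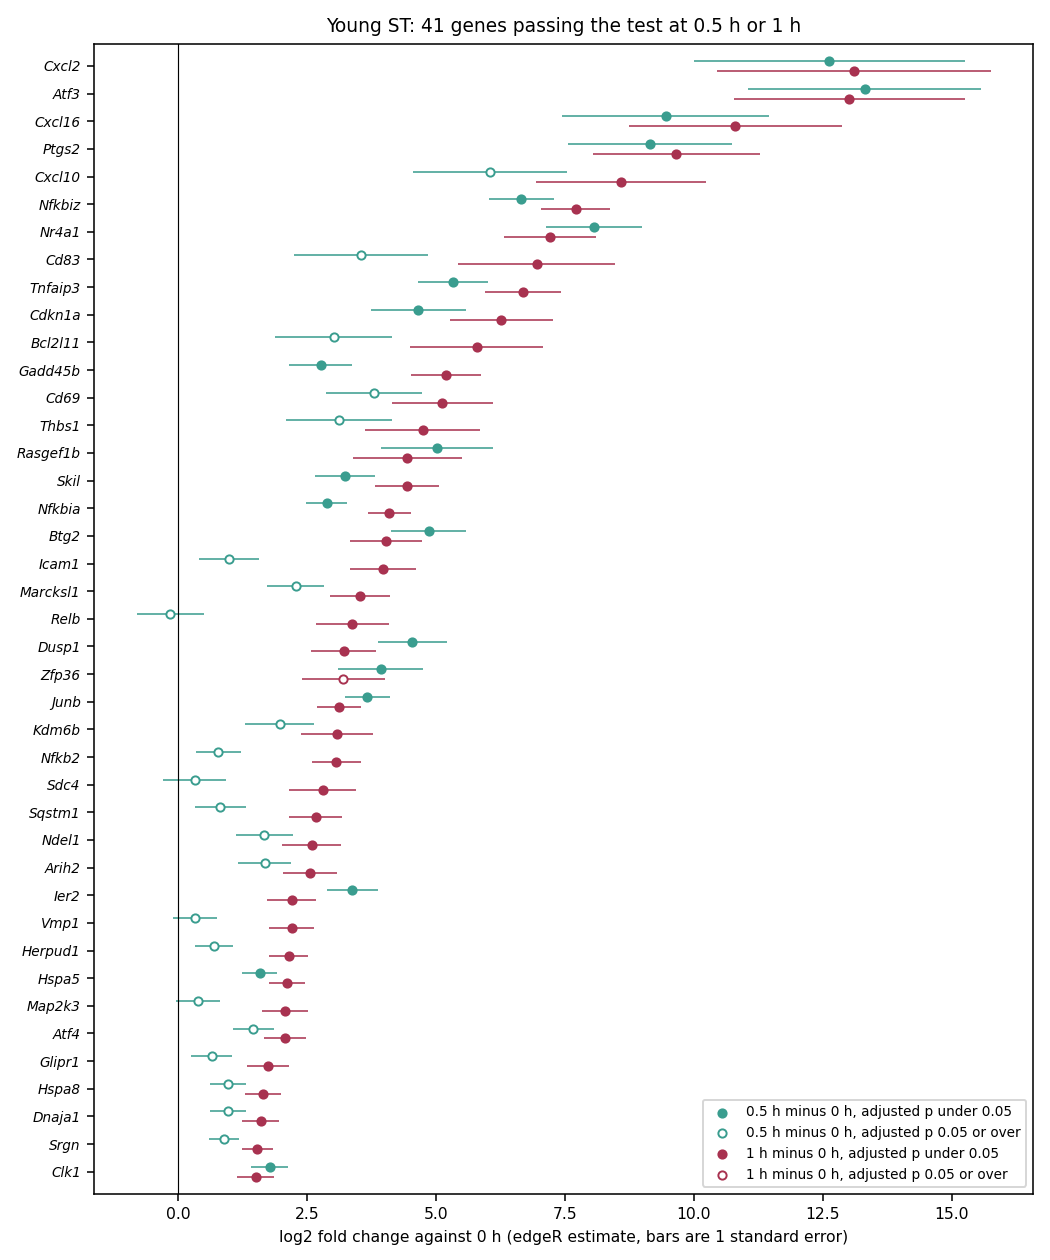
Log2 fold change against 0 h (horizontal axis, edgeR estimate with 1 SE) of 41 genes that passed at 0.5 h or 1 h in young ST; filled points passed at an adjusted p under 0.05 and open points did not. Cxcl2, Atf3 and Cxcl16 had no counts at 0 h, so their estimates are no bound on size. Zfp36 alone is filled at 0.5 h and open at 1 h.

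Genes of proteostasis and stress formed a further part of the 41. Hspa8, the constitutive cytosolic chaperone Hsc70, was at 8362, 6196 and 12815 CPM at 1 h, against 2729, 3077 and 2929 CPM at 0 h, with a narrow spread at 0 h. Its co-chaperone Dnaja1 was at 1002, 939.5 and 1231 CPM at 1 h and 322, 382 and 342 CPM at 0 h. Neither gene's groups overlapped, and the log2 changes were 1.65 ± 0.35 and 1.60 ± 0.35 (SE; edgeR adjusted p = 0.00992 and 0.0141). They were 2 of 13 heat shock genes (3 passed with mouse as a replicate block), all 13 of which had a positive log2 change, with a median of 1.60. Atf4, the factor of the integrated stress response, was at 423, 475 and 499 CPM at 1 h and 95.1, 131 and 107 CPM at 0 h (log2 change 2.07 ± 0.41 SE, adjusted p = 0.00357), 1 of 14 genes of that response to pass. Hspa5 averaged 1867 ± 502 CPM at 1 h and 431 ± 118 CPM at 0 h, and Herpud1, of endoplasmic reticulum associated degradation, 537 ± 149 and 121 ± 33.7 CPM (SD, n = 3 each). The autophagy genes Sqstm1 (p62) and Vmp1 averaged 2047 ± 1270.0 and 490.0 ± 61.9 CPM at 1 h, against 322 ± 86.3 and 106 ± 8.67 CPM at 0 h. Reads of Hspa8 may be shared with its processed copies in the genome, and its level is uncertain to that extent.

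Regulators of growth and survival were also among the 41. Cdkn1a was at 335, 554 and 780.4 CPM at 1 h and 10.1, 10.4 and 0.892 CPM at 0 h (log2 change 6.27 ± 1.00 SE, edgeR adjusted p = 0.000129). Gadd45b was at 227, 289.9 and 376 CPM at 1 h and 6.73, 10.5 and 6.92 CPM at 0 h, and its call held in 16 of 16 alternatives (log2 change 5.20 ± 0.68 SE, adjusted p = 1.91e-06). Bcl2l11, the pro-apoptotic protein Bim, was at 352, 365 and 948 CPM at 1 h and 26.5, 0.0897 and 3.35 CPM at 0 h (log2 change 5.79 ± 1.29 SE, adjusted p = 0.0179). It was the 1 gene of 13 in the list of survival and cell death genes that passed, and 2 passed with mouse as a replicate block. Map2k3, which activates p38, averaged 606 ± 329.6 CPM at 1 h and 143 ± 33.8 CPM at 0 h, and Kdm6b, a histone H3 lysine 27 demethylase, 467 ± 72.5 and 55.2 ± 27.2 CPM. Other genes that passed included Ptgs2, Marcksl1, Srgn (serglycin, the proteoglycan of secretory granules), Sdc4 (a syndecan), Thbs1 (thrombospondin), Arih2 (a ubiquitin ligase), Ndel1 and Glipr1, with log2 changes from 1.54 for Srgn to 9.66 for Ptgs2.

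Many programmes showed no call at either time in the edgeR test. The 25 interferon-stimulated genes had median log2 changes of -0.18 at 0.5 h and -0.37 at 1 h. The 18 stem cell transcription factors had medians of 0.05 and -0.30, the 19 cell cycle genes -0.06 and -0.03, and the 18 ribosome biogenesis genes 0.19 and 0.28, each beside -0.06 and -0.07 over all genes. The 12 surface genes of stem and progenitor cells had medians of -0.18 and -0.52, with 2 of 12 positive at each time; with no gene called, no fall was shown. Myc, whose protein drives growth, was at 126, 137 and 128 CPM at 1 h and 216, 416 and 367 CPM at 0 h, lower in every mouse and not past the test (adjusted p = 1). Receptors did not pass without the block. Tlr4 averaged 21.3 ± 8.58 CPM at 1 h and 19.3 ± 12.5 CPM at 0 h, Ly96 1.97 ± 0.274 and 4.83 ± 3.31 CPM, and Myd88 163 ± 86.4 and 62.3 ± 24.2 CPM (SD, n = 3 each). Cd14 was at 1148, 409 and 49.3 CPM at 1 h and 12.6, 4.21 and 0 CPM at 0 h and passed with mouse as a replicate block at both times (edgeR adjusted p = 0.00101 at 0.5 h and 6.91e-06 at 1 h; over 16 alternatives 0.000627 to 1 and 6.03e-06 to 1).

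Between 0.5 h and 1 h no gene passed in edgeR without the block (0% of 13678 called in either direction; 325 genes at an unadjusted p under 0.05). The fit with mouse as a replicate block called 3 genes higher at 1 h (0.0219%) and none lower, namely Icam1, Nfkb2 and Relb. DESeq2 called 131 genes in this step (90 higher and 41 lower) and limma voom with quality weights 19 (14 higher and 5 lower). Icam1 was at 318, 529.6 and 1341 CPM at 1 h, against 48.5, 81.8 and 145 CPM at 0.5 h (log2 change 2.99 ± 0.62 SE; adjusted p = 0.000115 with the block, 0.0571 without, 5.22e-05 to 1 over 15 alternatives). Nfkb2 was at 241, 215 and 280.1 CPM at 1 h and 61.9, 31.8 and 56.9 CPM at 0.5 h (log2 change 2.29 ± 0.45 SE; adjusted p = 0.0084 with the block, 0.0571 without, 0.000263 to 1 over 15 alternatives). Relb was at 157, 122 and 399.5 CPM at 1 h and 1.27, 16.8 and 40.7 CPM at 0.5 h (log2 change 3.53 ± 0.71 SE; adjusted p = 0.00425 with the block, 0.0571 without, 5.34e-05 to 1 over 15 alternatives). For all 3 genes each mouse was higher at 1 h and the groups did not overlap.

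Dusp1, Ier2 and Fos had lower levels at 1 h than at 0.5 h, with no call. Dusp1 was at 459, 373 and 627 CPM at 1 h and 1319.7, 1104 and 1254 CPM at 0.5 h, with no overlap. Ier2 was at 562, 882 and 877 CPM at 1 h and 1819, 1632 and 1798 CPM at 0.5 h. Fos was at 155, 129 and 312 CPM at 1 h and 996, 1238 and 1905 CPM at 0.5 h. Each of the 3 was lower at 1 h in every mouse, with log2 changes of -1.33 ± 0.58, -1.18 ± 0.46 and -2.80 ± 1.76 (SE; edgeR adjusted p = 1 for each). The 11 AP-1 genes had a median log2 change of -0.30 between these times, with 2 positive, the 23 immediate early genes -0.42, with 7 positive, and the 15 MAP kinase feedback genes -0.21, with 7 positive. The 14 activation genes had a median of 1.47, with all positive, and the 6 I-kappa-B genes 1.53, with all positive. The median over all genes was 0.00.

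**Figure D3:**
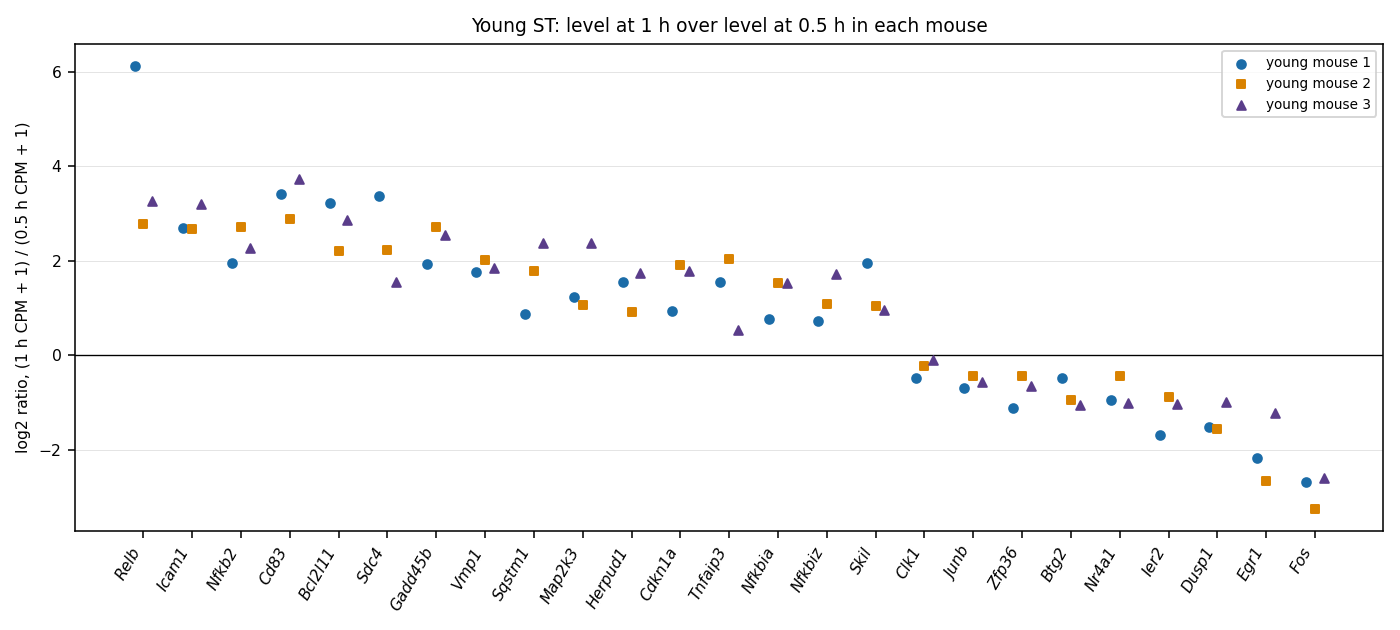
Log2 ratio of the level at 1 h over that at 0.5 h in each of mice 1, 2 and 3 (vertical axis, 1 CPM added to both) for 25 genes. Relb, Icam1 and Nfkb2 lie above 0 in all 3 mice, while Dusp1, Ier2, Egr1 and Fos lie below 0 in all 3. The other genes shown also keep to the same side of 0 in all 3 mice. In the edgeR test without mouse as a replicate block none of the genes shown passed. With the block, Relb, Icam1 and Nfkb2 alone passed.

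The mice were not alike in every gene. Il1b was at 1580.5, 351 and 50.6 CPM at 1 h and 26.7, 4.75 and 0 CPM at 0 h, and Cd14 and Tnf followed the same order of mice, with Tnf at 1072, 446 and 173 CPM at 1 h and 6.05, 0.538 and 0 CPM at 0 h. Tlr2 was at 785, 318 and 26.5 CPM at 1 h and 107, 41.8 and 29.9 CPM at 0 h. The summed neutrophil markers followed that order too (62614, 35985 and 252 CPM at 1 h), as did 11 monocyte and macrophage markers (10739.8, 5762 and 200.8 CPM at 0 h, 10469.6, 5909 and 225 CPM at 0.5 h and 9936, 6137 and 217 CPM at 1 h). Their part in the levels of Il1b, Tnf, Cd14 and Tlr2 was not tested. In mouse 3, Tnf was at 173 CPM at 1 h with no counts at 0 h. Of the 41 genes higher at 1 h, 4 had levels in that order at 1 h (Cxcl2, Sdc4, Thbs1 and Tnfaip3), 15 had the opposite order, among them Icam1, Cdkn1a and Nr4a1, and 22 had another order. The orders were not counted over all genes tested, so these counts have no baseline. Thbs1 was at 2411, 569 and 227 CPM at 1 h and 29.7, 59.6 and 30.3 CPM at 0 h, and Sdc4 at 395, 217 and 171 CPM at 1 h and 48.2, 36.5 and 27.0 CPM at 0 h. Nfkbiz and Nfkbia followed the order at 0.5 h and not at 1 h. Without mouse 3, 21 genes were higher at 0.5 h, 14 of them among the 20 given above, and 40 at 1 h, 24 of them among the 41. The 8 B cell markers summed to 459, 269 and 22.1 CPM at 1 h and 329, 199 and 51.1 CPM at 0 h, again lowest in mouse 3. The 8 markers of mast cells, basophils and eosinophils moved with the time as well as the mouse, at 1010.2, 1627 and 20.2 CPM at 1 h and 342, 1029.6 and 0.223 CPM at 0 h, with overlap between the times. Their part in the genes that rose at 1 h was not tested. The 1 h library of mouse 1 stood apart in another way, since Lars2 took 0.296% of its counts and at most 0.0630% in the other 8; without the technical repeat that carried it, 40 genes were higher at 1 h and 3 passed in the step from 0.5 h.

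**Figure D4:**
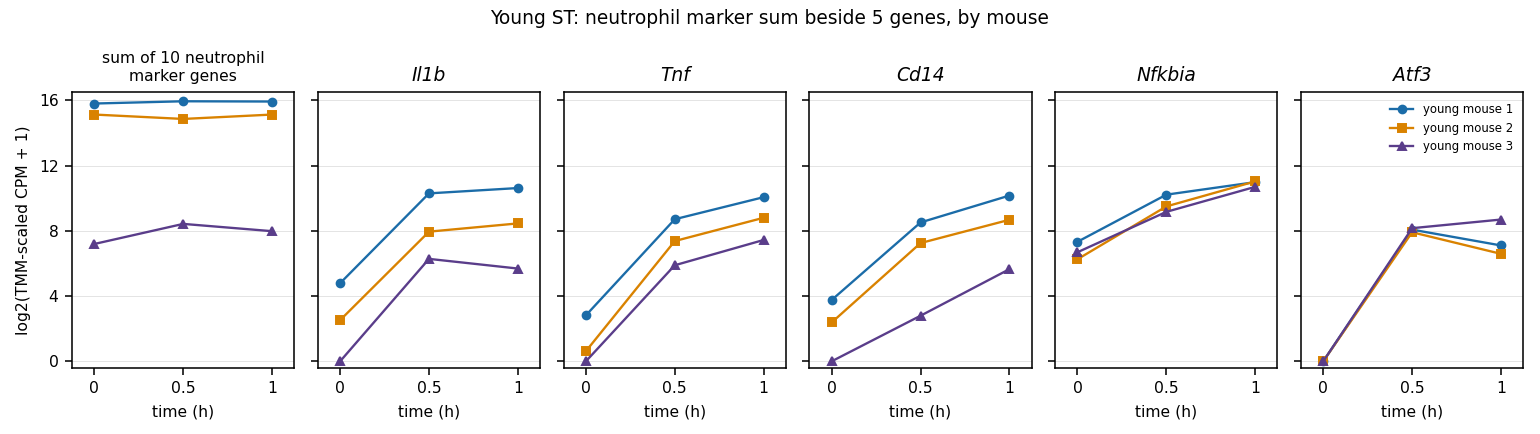
Sum of 10 neutrophil marker genes and the level of 5 genes in young ST at 0, 0.5 and 1 h, as log2 of TMM-scaled CPM plus 1, with 1 line for each mouse. Il1b, Tnf and Cd14 keep the order of mice 1, 2 and 3 seen in the marker sum, while Atf3 lies close together in the 3 mice at 0.5 h and Nfkbia is highest in mouse 2 at 1 h.

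The first hour in ST was set against that in LT and in multipotent progenitors (MPP) sorted from the same mice. The difference in change from 0 h was tested for every gene. None passed in edgeR for ST minus LT or ST minus MPP, at 0.5 h or at 1 h (0% of 13678 in each of the 4 tests, with or without mouse as a replicate block; 331 and 118 genes at an unadjusted p under 0.05 at 0.5 h, 374 and 150 at 1 h). DESeq2 called 147 and 65 genes at 0.5 h and 169 and 55 at 1 h, and limma voom with quality weights 1 to 2 in each. Nfkbiz averaged 799 ± 474 CPM in ST, 493 ± 238 in LT and 349 ± 12.4 in MPP at 0.5 h (SD, n = 3 each). Its log2 change exceeded that of MPP by 2.04 ± 0.71 and that of LT by 1.18 ± 0.71 (SE; edgeR adjusted p = 1 for both). Tnfaip3 averaged 387 ± 175 CPM in ST, 284 ± 138 in LT and 173 ± 90.6 in MPP at 0.5 h, with a difference in log2 change of 1.96 ± 0.82 from MPP (SE, edgeR adjusted p = 1). For Nfkbia, Icam1, Junb and Nr4a1 the differences from either population lay between -0.90 and 0.80 on the log2 scale at the 2 times, with standard errors of 0.52 to 0.97. A test that finds no gene does not show that the populations respond alike.

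**Figure D5:**
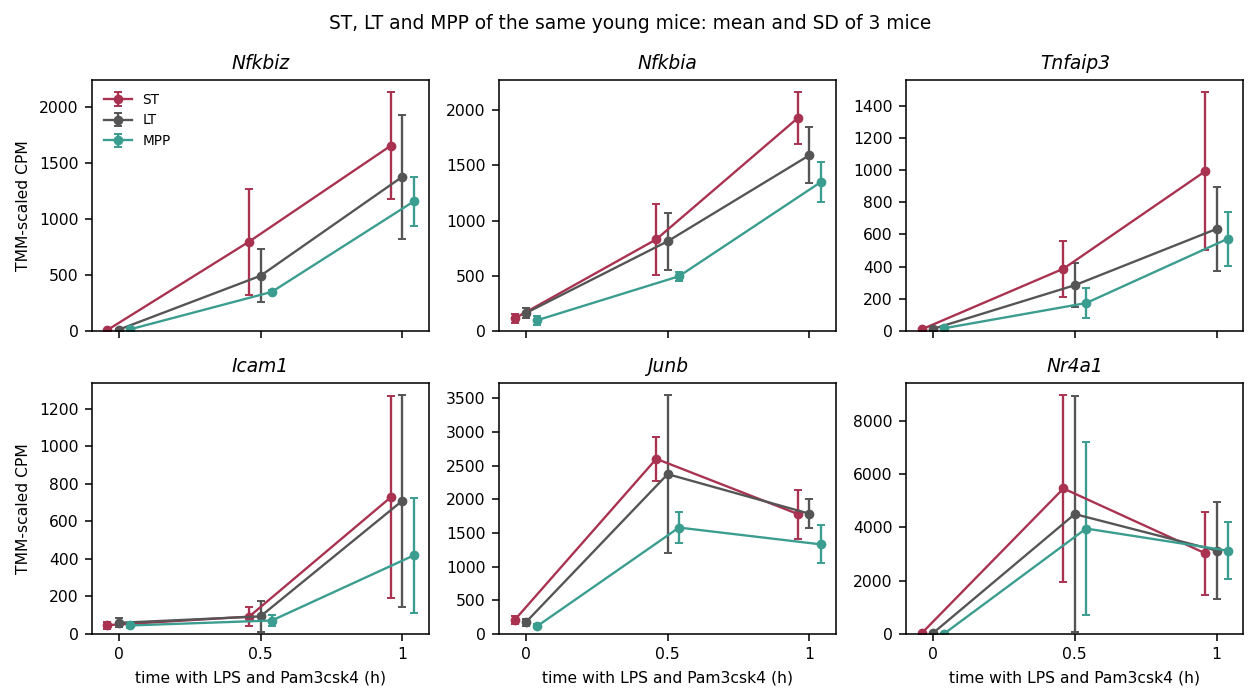
Mean level in TMM-scaled CPM (vertical axis from 0) of 6 genes in ST, LT and MPP of the same 3 young mice at 0, 0.5 and 1 h; bars are 1 SD over mice. The bars of ST and LT overlap for the 6 genes at 0.5 h and 1 h, and no difference in change between populations passed the test.

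ST of a further young mouse, mouse 4, were cultured without ligand and sampled at 0, 2, 4 and 8 h, with 1 library at each time. They give no match in time to the first hour, and no test was made. With ligand, ST of mice 1, 2 and 3 had 601, 815 and 1069 unscaled CPM of Icam1 at 2 h, against 7.27, 74.0, 5.02 and 2.47 without ligand at 0, 2, 4 and 8 h. Cd83 was at 1004, 2827 and 4359.8 unscaled CPM with ligand at 2 h, and at 24.2, 64.0, 34.2 and 27.2 without ligand at the 4 times. Hspa8 ran otherwise, at 5109.9, 6422 and 7856 unscaled CPM with ligand at 2 h and 3051, 12844, 10462 and 9866 without ligand. Atf3 was at 27.2, 67.2 and 68.7 unscaled CPM with ligand at 2 h and 0.808, 114, 105 and 121 without ligand. Skil was at 456, 647 and 596 unscaled CPM with ligand at 2 h and 35.1, 422, 258 and 118 without ligand. Nr4a1 was at 881, 469.5 and 732 unscaled CPM with ligand at 2 h and at 2.42 and 271 without ligand at 0 and 2 h. Tnfaip3 was at 1070.2, 567 and 295 with ligand at 2 h and at 5.25 and 185 without ligand at 0 and 2 h, and Nfkb2 at 621, 398 and 463 with ligand and 21.4 and 229.9 without. Of the 41 genes higher at 1 h, 38 were higher at 2 h than at 0 h in the culture without ligand, and Gadd45b, Ier2 and Sdc4 were not. At 2 h without ligand, 25 of the 41 were below all 3 libraries with ligand, 11 were above all 3 and 5 lay within their range. None of these counts was also made over all genes tested, so they have no baseline. The 41 genes were chosen as higher with ligand at 1 h in mice 1, 2 and 3. The libraries with ligand at 2 h come from the same mice, so these counts are not independent of that choice.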

How the data were processed

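The authors' deposited table holds expected counts per gene from SMART-seq2 libraries of polyA RNA, made with RSEM on mm9 per the submitters' processing notes; strand, versions and filters are not given in the sources used here. Column headers carry a date in place of the mouse; the mouse was inferred from it, as the numbers of columns per age, population and time under a date matched 1 labelled mouse, so date and mouse coincide; each comparison sets times of the same mice against each other. Expected counts of technical repeats were summed and rounded. edgeR 4.0.16 (R 4.3.3; TMM, filterByExpr, glmQLFit, glmQLFTest, 2-sided) was fitted over 63 libraries (ST, LT and MPP of mice 1 to 3 at 7 times), and p-values were adjusted over 13678 of 23366 genes. The SE of each log2 change was derived from the F statistic of its edgeR test. It thus rests on the spread estimated over all 63 libraries, and not on the 3 mice of a group alone. Depth was 4048178 to 10706984 counts, and no column was left unmapped. Pairing by mouse rests on this match and on the labels. Alternatives were DESeq2 1.42.0, limma 3.58.1 voom, other scaling and filters, the block, other libraries in the fit and left-out mice. Promoters are from RefSeq. Named genes were up to 8 largest rises and falls per test, up to 6 more of each with the block, up to 4 passing members per list and a fixed set; others that passed were named after their values were seen, and 1 gene that passed is not reported here. The members and lists were chosen with earlier results of these data known. Mouse labels name separate animals.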

Additional observations from a re-analysis of the deposited data

How the results depend on the processing

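With mouse as a replicate block the counts of genes were 33 at 0.5 h, 77 at 1 h and 3 in the step between them, against 20, 41 and 0 without it, and every gene called without the block was called with it. DESeq2 gave 172, 229 and 131, and limma voom with quality weights 73, 188 and 19. The 9 ST libraries alone with the block gave 50, 130 (125 higher and 5 lower) and 1. Leaving out 1 mouse gave 5 to 21 genes at 0.5 h, 5 to 40 at 1 h and 0 to 0 in the step; the low ends are without mouse 2. The step also had 2 genes with no filter on low counts and 3 with 5 CPM in 3 libraries. Chosen after seeing the data, the 1 h library of mouse 1 less its technical repeat 1 gave 3 in the step without the block and 33, 75 and 3 with it. The differences of ST from LT and from MPP had 0 genes with and without the block, 147 and 65 (0.5 h) and 169 and 55 (1 h) in DESeq2, and 1, 1, 1 and 2 in voom; without single mice they had 0 to 1 and 0 to 0 genes at 0.5 h and 0 to 3 and 0 to 0 at 1 h. The cause of these shifts was not tested. All other alternatives stayed within 1.5 times the counts given. No direction reversed among the called genes that the naming rule chose. Of these named genes, 16 passed at 0.5 h and 3 of them in all alternatives; at 1 h 25 passed and 4 did in all. The 3 mice at each time, libraries of as few as 4048178 counts, and levels near 0 at 0 h limit what falls could be seen.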

Other observations

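Further genes passed at 1 h with mouse as a replicate block alone. Asb4, a substrate adaptor of ubiquitin ligases, was at 4.95, 14.9 and 59.3 CPM at 1 h and had no counts at 0 h (at least 216-fold; edgeR adjusted p = 0.00884 with the block and 1 without, 4.35e-06 to 1 over 16 alternatives). Ramp3, a partner of calcitonin-family receptors, was at 48.3, 71.2 and 140.3 CPM at 1 h with no counts at 0 h (adjusted p = 0.0194 with the block and 0.221 without, 2.79e-06 to 1 over 16 alternatives). Both were highest in mouse 3. Pmepa1, a transmembrane inhibitor of TGF-beta signalling, was at 42.9, 33.5 and 96.6 CPM at 1 h and 0, 0.269 and 0 CPM at 0 h, also highest in mouse 3 (adjusted p = 0.0273 with the block and 0.116 without, 1.87e-05 to 1 over 16 alternatives). Crem, a cAMP-responsive factor, was at 185, 277 and 399.7 CPM at 1 h and 0, 0.0897 and 2.01 CPM at 0 h (adjusted p = 0.0415 with the block and 0.202 without, 0.000137 to 1 over 16 alternatives).

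Other genes called only with the block had the opposite order of mice. Fpr1, a receptor for formyl peptides on phagocytes, was at 1501, 575 and 3.69 CPM at 1 h and 61.7, 64.9 and 0 CPM at 0 h (adjusted p = 0.0124 with the block and 1 without, 0.0105 to 1 over 16 alternatives). Irg1, which makes itaconate in activated macrophages, was at 1746, 468 and 11.3 CPM at 1 h and 0, 8.79 and 0 CPM at 0 h (adjusted p = 0.0449 with the block and 0.874 without, 0.000745 to 1 over 16 alternatives). Fpr1 and Irg1 were named after their values were seen.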
